A study of Mus musculus with 22 samples.

Results

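Ripk4, Map3k7cl, Ripply3 and Sh3bgr are weakly expressed genes of the distal part of mouse chromosome 16 that Ts66Yah mice carry in an additional copy. They were chosen as weakly expressed genes of this part that the study names, 4 of the 55385 genes in its count table. That naming was selected on measured values. Map3k7cl was named for its fold change in the hippocampus beside that of the older Ts65Dn model. Ripk4, Ripply3 and Sh3bgr were named for theirs in the entorhinal cortex. Sh3bgr was also followed up by RT-qPCR in the hippocampus, where the paper reports it overexpressed in both models. Genotype values from the region that served for the naming are therefore given below as a description, with no test, as are those of Sh3bgr in both regions. Genotype was tested only for Ripk4 and Ripply3 in the hippocampus and for Map3k7cl in the entorhinal cortex. These tested values come from the same mice as the values used for the naming.

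Read counts from RNA-Seq covered 2 brain regions, hippocampus (HIP) and entorhinal cortex (EC), of 11 male mice aged 5 to 6 months on the mixed B6C3B background, of which 5 were wild type (wt) and 6 were Ts66Yah. Each mouse gave 1 library from each region. Ts66Yah mice, derived from a single founder, carry the minichromosome of Ts65Dn after CRISPR/Cas9 removed its centromeric chromosome 17 part, so that an additional copy of the distal chromosome 16 segment is present in every cell that keeps the minichromosome. The wt mice were control littermates.

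Ripk4 encodes a serine/threonine kinase with ankyrin repeats, of the family of receptor-interacting kinases that links cell surface signals to NF-κB and Wnt outputs, and it is known above all for the differentiation of the epidermis. Map3k7cl encodes a small protein that resembles the C-terminal part of the kinase TAK1 (Map3k7) and has no kinase domain. Ripply3 encodes a transcriptional co-repressor that binds T-box factors and recruits Groucho/TLE proteins, and it acts in the pharyngeal region of the embryo. Sh3bgr encodes a glutamic acid-rich protein with a thioredoxin-like fold, which is abundant in heart and skeletal muscle.

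The genes lie apart from each other on chromosome 16 (GRCm38, GENCODE M21). Map3k7cl occupies 87553330 to 87595336 on the plus strand, Ripply3 94328420 to 94336935 on the plus strand, Sh3bgr 96200450 to 96228935 on the plus strand and Ripk4 97741933 to 97763787 on the minus strand. No annotated gene overlapped any of them on either strand, so that no read could be counted for them through overlap with another annotated gene. Whether the counting used strand is not given in the sources used here. Windows of 50 bases, the read length, were also compared with the transcripts of all other genes. No window of Ripk4 or Map3k7cl occurred elsewhere, whereas 25 of 1482 windows of Ripply3 (1.69%) and 20 of 1853 windows of Sh3bgr (1.08%) did. These were shared with 18 and 465 other genes, so that sequence alone does not assign reads from them.

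The coding sequence of Ripply3 is shown around the codons of its Trp-Arg-Pro-Trp motif, since this motif is what binds the Groucho/TLE co-repressors whose levels are given below. The stretch covers bases 88 to 159 of the 456-base coding sequence in the GENCODE M21 transcript, 5′ to 3′, and capitals mark the codons of the motif at bases 118 to 129. The amino acids that TGGAGACCGTGG encodes were searched in frame in all coding genes, and they occurred in 32 of 21951 coding genes (0.146%).
Ripply3: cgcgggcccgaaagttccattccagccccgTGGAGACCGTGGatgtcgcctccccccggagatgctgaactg

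The libraries held 25.9 M to 50.1 M counted reads (M, 1000000), and the 4 genes together took 2749 reads over all 22 libraries. Expressed as CPM (reads per M reads of a library, scaled by TMM factors), 3 reads corresponded to 0.0599 to 0.116 CPM depending on the library. The lowest count of any of the genes was 5 and the highest 123, so that all 88 values lay above 3 reads, and 10 of the 88 values were under 10 reads. Intervals on single libraries below are exact Poisson intervals and cover counting error only. The summed CPM of the hippocampal markers Prox1, C1ql2, Spink8 and Zbtb20 was 480.9 to 631.5 in the HIP libraries and 55.0 to 95.8 in the EC libraries, which separates the regions as labelled. The cortical markers Rorb, Tshz2, Fezf2 and Scube1 summed to 141.2 to 182.6 CPM in wt HIP, 86.8 to 133.1 in Ts66Yah HIP, 150.1 to 184.1 in wt EC and 136.5 to 173.7 in Ts66Yah EC. Of these, Rorb and Scube1 were called higher and Tshz2 lower in EC than in HIP in both genotypes.

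The fitted fold change of Ripk4, Ts66Yah over wt, was 2.03 in HIP, a difference that did not pass the threshold with edgeR, and 2.39 in EC. In HIP, the wt libraries held 21, 31, 83, 22 and 33 reads of Ripk4 (replicates 1 to 5). The Ts66Yah libraries held 95, 37, 69, 70, 119 and 62 reads (replicates 1 to 6). In CPM, wt replicate 3 stood at 1.63, above the other wt libraries at 0.723 to 0.923, and within the Ts66Yah range of 1.22 to 3.37. The groups overlapped through this wt library alone. The mean Ripk4 level was 0.971 ± 0.374 CPM in wt (SD, n = 5) and 2.01 ± 0.793 CPM in Ts66Yah (SD, n = 6). The fitted log2 fold change was 1.02 (standard error 0.29, 95% interval 0.41 to 1.63). With edgeR's quasi-likelihood test the unadjusted p was 0.00319 and the Benjamini-Hochberg adjusted p was 0.164, and Ripk4 was not called. With DESeq2 it was, at a log2 fold change of 1.03 and an adjusted p of 0.0344, and with limma voom it was not (adjusted p = 0.205). Of the 101 segment genes tested, 5 had a larger log2 fold change than Ripk4. In this comparison 0.591% of the 18452 genes tested were called in either direction.

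In EC, the wt libraries held 10, 9, 27, 22 and 10 reads of Ripk4. The Ts66Yah libraries held 28, 42, 41, 59, 23 and 19 reads. The wt replicates 3 and 4, at 0.647 and 0.676 CPM, stood apart from the other wt libraries at 0.271 to 0.304, and the second of them passed the lowest Ts66Yah library, replicate 6 at 0.657. The mean level was 0.438 ± 0.204 CPM in wt and 1.06 ± 0.370 CPM in Ts66Yah (SD, n = 5 and 6). The fitted log2 fold change was 1.26 (standard error 0.33, interval 0.55 to 1.96). This is a description, since Ripk4 was named from this region. Among the 93 genes of the segment tested in EC, 2 had a larger log2 fold change than Ripk4.

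Map3k7cl had nearly equal levels in both genotypes in HIP. The wt HIP libraries held 20, 23, 29, 17 and 22 reads of Map3k7cl. The Ts66Yah HIP libraries held 27, 15, 15, 30, 21 and 25 reads. The wt range of 0.559 to 0.689 CPM lay within the Ts66Yah range of 0.397 to 0.718 CPM. The means were 0.615 ± 0.0535 CPM in wt and 0.585 ± 0.124 CPM in Ts66Yah (SD, n = 5 and 6). The log2 fold change was -0.06 with a standard error of 0.20 (interval -0.48 to 0.37), and with each mouse left out in turn it lay between -0.13 and 0.03. Of the 101 segment genes tested in HIP, 96 had a larger log2 fold change than Map3k7cl. The naming used this region, so that these values are a description.

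In EC, the wt libraries held 17, 21, 28, 15 and 12 reads of Map3k7cl. The Ts66Yah libraries held 17, 18, 22, 53, 24 and 17 reads. Ts66Yah replicate 4 stood highest at 1.39 CPM, with a counting interval of 1.04 to 1.81, and the next Ts66Yah library was at 0.841. The groups overlapped, with wt libraries at 0.352 to 0.671 CPM. The log2 fold change was 0.51 with a standard error of 0.30 (interval -0.13 to 1.15, adjusted p = 0.875 and unadjusted p = 0.109 with edgeR), and without that replicate it was 0.23. In EC 0.283% of the 17658 genes tested were called by genotype. The interval of Map3k7cl contained both no change and a 1.5-fold change, so that neither could be told from the other at this depth and number of mice.

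Ripply3 was the weakest of the 4 genes in reads, with a median of 10.5 reads per library and 8 of 22 libraries under 10 reads. In HIP, the wt libraries held 6, 6, 11, 5 and 10 reads of Ripply3. The Ts66Yah libraries held 17, 14, 18, 16, 18 and 13 reads. Every Ts66Yah library, at 0.310 to 0.510 CPM, lay above every wt library, at 0.146 to 0.280 CPM. Of all genes tested in HIP, 1.06% were separated in this direction without overlap. Single libraries were imprecise, since the 10 reads of the highest wt library allowed 0.134 to 0.514 CPM and the 13 reads of the lowest Ts66Yah library 0.165 to 0.530 CPM. The mean Ripply3 level was 0.207 ± 0.0485 CPM in wt (SD, n = 5) and 0.431 ± 0.0729 CPM in Ts66Yah (SD, n = 6). The log2 fold change was 1.04 with a standard error of 0.28 and an interval of 0.44 to 1.63 (unadjusted p = 0.000765, adjusted p = 0.0852 with edgeR). Ripply3 was not called, with an adjusted p of 0.0923 by limma voom and no adjusted p from DESeq2, whose filter on low mean counts left it out. It passed edgeR's filter on low counts in HIP through the Ts66Yah libraries, since too few wt libraries held enough reads. The test is therefore not independent of that filter. Without the filter the adjusted p was 0.204 with edgeR.

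In EC, the wt libraries held 8, 5, 16, 9 and 6 reads of Ripply3, and the Ts66Yah libraries 11, 9, 10, 17, 11 and 10. The wt replicate 3, at 0.383 CPM, lay within the Ts66Yah range of 0.282 to 0.444 CPM, and the other wt libraries lay at 0.151 to 0.277 CPM. The log2 fold change was 0.46 with a standard error of 0.29 and an interval of -0.16 to 1.08, given as a description. Without wt replicate 3 it was 0.70.

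Sh3bgr had the most reads of the 4 genes in HIP and few in EC. In HIP, the wt libraries held 49, 84, 91, 32 and 56 reads of Sh3bgr. The Ts66Yah libraries held 123, 102, 120, 99, 89 and 84 reads. The Ts66Yah replicates 1 to 3, at 3.18 to 3.37 CPM, stood highest, and replicate 6, at 2.00 CPM, fell just under the highest wt library, replicate 2 at 2.04 CPM. The means were 1.66 ± 0.307 CPM in wt and 2.78 ± 0.557 CPM in Ts66Yah (SD, n = 5 and 6). The fitted log2 fold change was 0.73 (standard error 0.17, interval 0.36 to 1.10). In EC, the wt libraries held 10, 22, 12, 12 and 9 reads, and the Ts66Yah libraries 10, 17, 19, 18, 13 and 12. The wt replicate 2, at 0.663 CPM, was the highest EC library of either genotype, and the other wt libraries at 0.264 to 0.369 CPM overlapped the Ts66Yah range of 0.274 to 0.574 CPM. The EC log2 fold change of Sh3bgr was 0.27 with a standard error of 0.29 (interval -0.37 to 0.90). It was 0.56 without that wt library and 0.17 without wt replicate 5. The genotype values of Sh3bgr are descriptions in both regions.

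**Figure D1:**
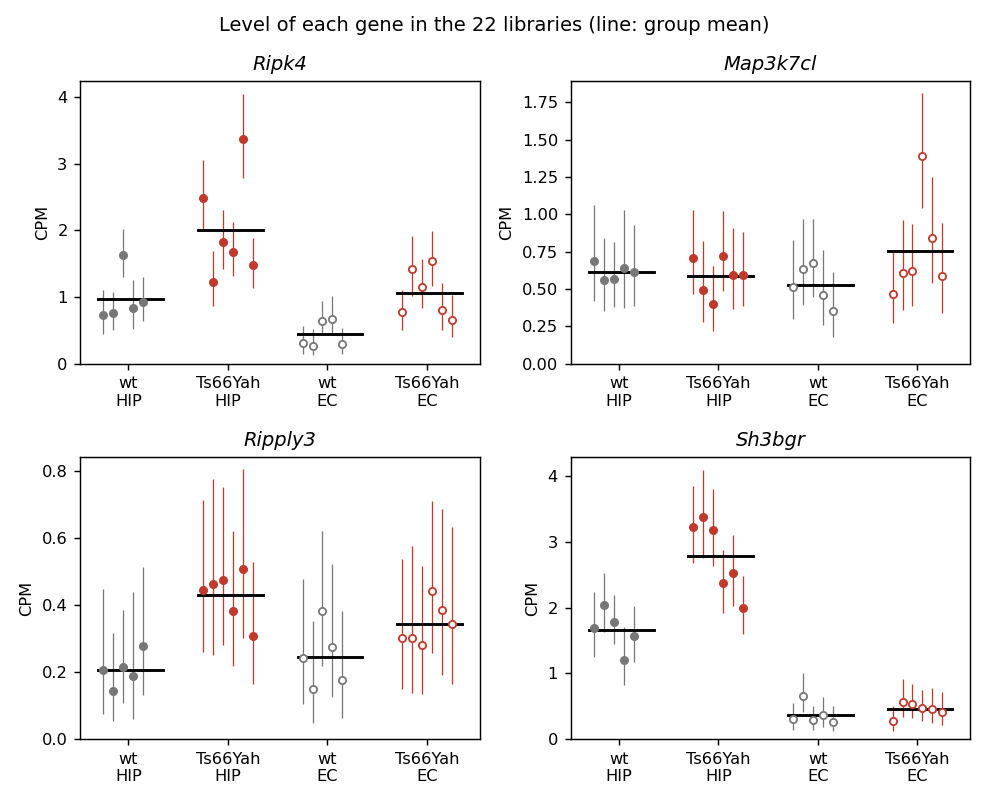
Level of each gene in CPM (vertical axis, linear, from 0) in every library of the 4 groups, with wt in grey, Ts66Yah in red, HIP filled and EC open. Vertical bars are exact 95% Poisson intervals of single libraries and black lines are group means. The Ripply3 libraries of wt HIP (0.146 to 0.280 CPM) and Ts66Yah HIP (0.310 to 0.510 CPM) do not overlap, although their counting intervals do.

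The HIP libraries that gave the genotype differences of Ripk4, Ripply3 and Sh3bgr also differed in the sum of the 4 listed cortical genes. This sum was 141.2 to 182.6 CPM in wt and 86.8 to 133.1 CPM in Ts66Yah. It is the sum of 1 among several marker lists. How often such a sum lies lower in Ts66Yah without overlap was not computed. Tshz2, called lower in EC than in HIP in both genotypes, fell most in CPM, from a mean of 91.6 to 50.9. Rorb and Scube1, the genes called higher in EC, went from 15.6 to 14.7 and from 21.2 to 26.2 CPM. On the log2 scale, Tshz2 differed by -0.85 (standard error 0.18, adjusted p = 0.0565 with edgeR) and Fezf2 by -0.37 (standard error 0.08, adjusted p = 0.0729 with edgeR). Rorb differed by -0.08 and Scube1 by 0.30. The meningeal Aldh1a2 differed by 0.69 (standard error 0.19, adjusted p = 0.164 with edgeR). The part of these cells or regions in the values of the 4 genes was not tested.

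In EC no gene of the 4 had all its Ts66Yah libraries above all its wt libraries, a separation seen for 0.549% of the genes tested there. The median log2 fold change was 0.59 over the 101 segment genes tested in HIP and 0.57 over the 93 tested in EC, and 57.4% and 48.4% of them were called. Among the tested differences, the intervals of Ripk4 and Ripply3 in HIP lay above 0 and contained 0.58, the log2 value of a 1.5-fold change. That of Ripply3 belongs to a gene that passed the filter through its Ts66Yah libraries.

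**Figure D2:**
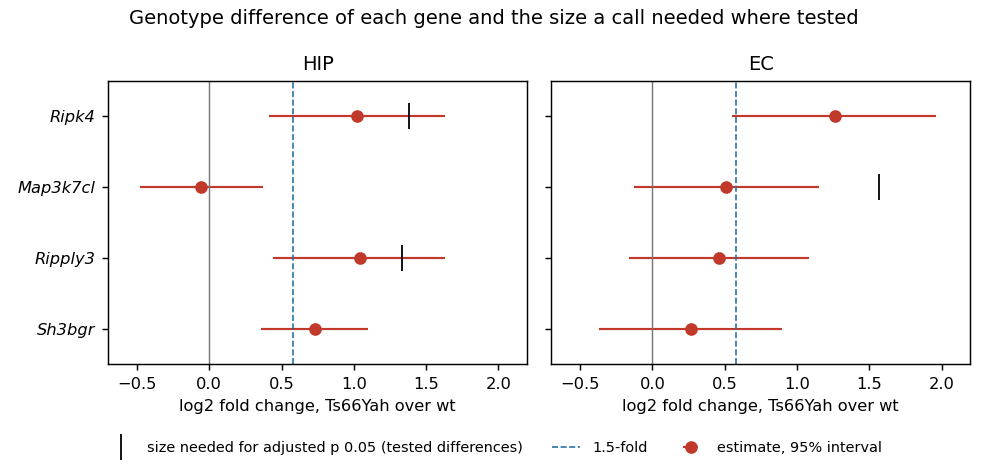
Log2 fold change of Ts66Yah over wt (horizontal axis) for each gene in HIP (left) and EC (right), with 95% intervals. The grey line marks no change, the dashed line a 1.5-fold change, and the black tick, drawn for the 3 tested differences only, the log2 fold change that would have reached an adjusted p of 0.05 at the gene's own standard error. The points of Ripk4 and Ripply3 in HIP (1.02 and 1.04) and of Map3k7cl in EC (0.51) lie left of their ticks, and the other points are descriptions.

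How large a change had to be to pass the test was set by the error of each gene and by the number of genes called. In HIP, a gene needed an unadjusted p of at most 0.000291, which at its own standard error meant a log2 fold change of 1.38 for Ripk4 (2.59-fold) and 1.33 for Ripply3 (2.52-fold). In EC, where it was 0.000139, Map3k7cl needed 1.57 (2.97-fold). At these errors, a change of 1.5-fold would not have been called in any of the 3 tested differences.

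The share of the error that came from counting differed between the genes. For Ripply3 in wt HIP the coefficient of variation between mice was 23.4%, and counting alone gives 36.3% at these read numbers. The spread of Ripply3 was at or below that of counting in 3 of its 4 groups, and so was the spread of Map3k7cl in 2 and of Sh3bgr in 1. For Ripk4 it was in none, since its coefficients of variation of 34.9% to 46.6% lay above the 11.5% to 25.3% of counting. Counting thus gave 8.55% to 29.5% of the squared coefficient of variation of Ripk4, and the rest was spread between mice beyond counting.

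**Figure D3:**
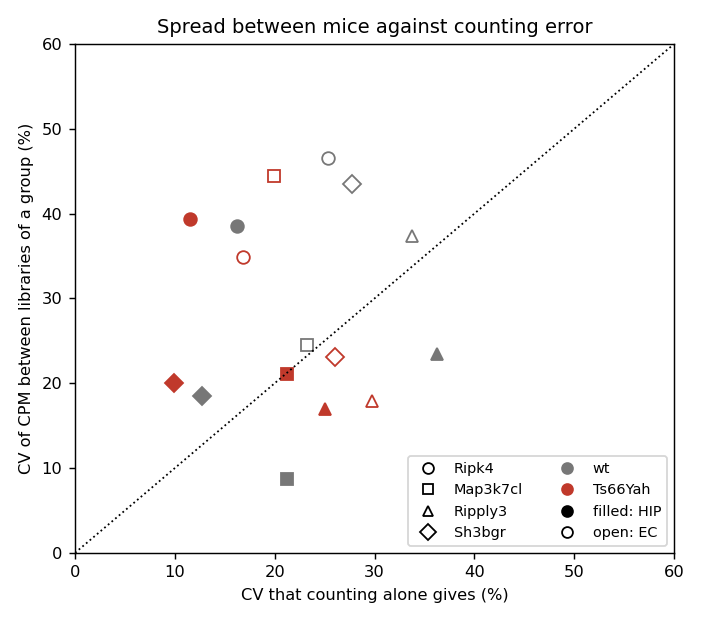
Coefficient of variation of CPM between the mice of a group (vertical axis, %) against the coefficient that Poisson counting alone gives at the same read numbers (horizontal axis, %), 1 point per gene and group. Points on or under the dotted line of equality, 6 of 16, vary no more than counting. All 4 points of Ripk4 (circles) lie above it.

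The regions were then compared within each genotype, a contrast that the naming did not use. Sh3bgr was lower in EC than in HIP in all 11 mice, with a HIP level 3.08 to 11.8 times that of EC (median 5.56). No EC library of either genotype reached the lowest HIP library of its genotype. In wt the log2 difference, EC minus HIP, was -2.14 with a standard error of 0.26 (interval -2.71 to -1.57), with an adjusted p of 2.11e-05 by edgeR's quasi-likelihood test. In Ts66Yah it was -2.61 with a standard error of 0.20 (interval -3.03 to -2.19) and an adjusted p of 5.54e-08. In wt 47.7% of all genes tested were called between the regions and 18.6% lay lower in EC without overlap. In Ts66Yah these shares were 54.0% and 16.9%. Of the 17935 genes tested in wt, 333 had a smaller (more negative) log2 difference than Sh3bgr, and in Ts66Yah 196 of 18043 had.

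Ripk4 was also lower in EC, in 10 of 11 mice. Its HIP level was 0.862 to 4.19 times its EC level, and Ts66Yah replicate 2 was the mouse below 1. In wt the log2 difference was -1.15 with a standard error of 0.34 (adjusted p = 0.0121 with edgeR), and the regions did not overlap, the highest EC library being at 0.676 and the lowest HIP library at 0.723 CPM. In Ts66Yah it was -0.92 with a standard error of 0.27 (adjusted p = 0.0105 with edgeR), and the regions overlapped. This call depended on 2 mice, since without Ts66Yah replicate 1 the difference was -0.77 with an adjusted p of 0.0535 and without replicate 5 it was -0.65 with an adjusted p of 0.0537 (edgeR).

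The other genes were not called between the regions. Map3k7cl differed by -0.20 in wt (interval -0.68 to 0.27, adjusted p = 0.467) and by 0.36 in Ts66Yah (interval -0.22 to 0.93, adjusted p = 0.276) with edgeR. The wt value was -0.34 without replicate 3 and -0.09 without replicate 5, and the Ts66Yah value was 0.14 without replicate 4. Its HIP level exceeded its EC level in 5 of 11 mice. Ripply3 differed by -0.32 in Ts66Yah (interval -0.81 to 0.17, adjusted p = 0.243 with edgeR). In wt it fell under the filter on low counts, and without that filter the difference was 0.26 with a standard error of 0.39, given with no test. The other 3 genes passed the filter there, and all 4 passed it in the other comparisons.

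**Figure D4:**
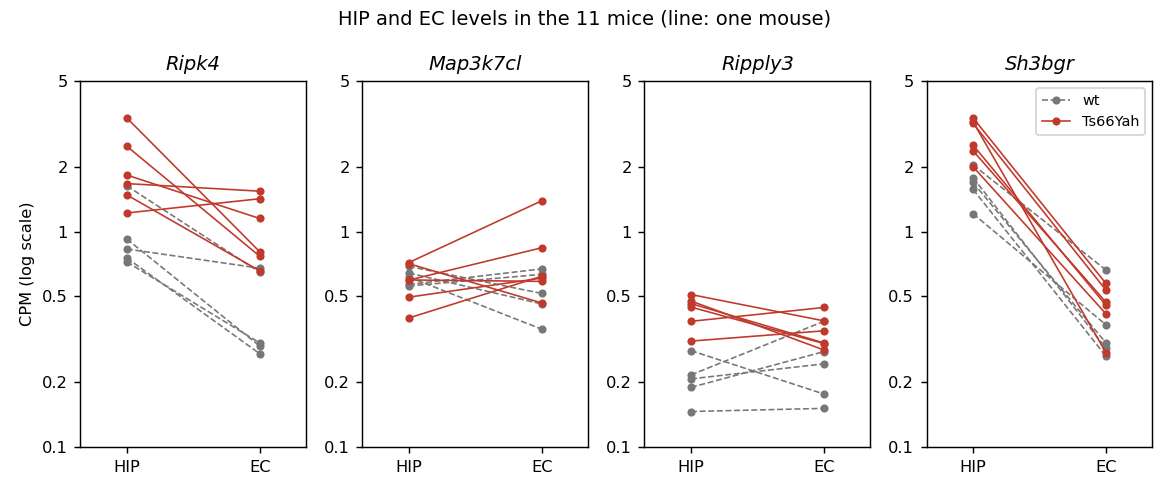
CPM of each gene in HIP and EC of the same mouse (vertical axis, log scale), 1 line per mouse, with wt dashed in grey and Ts66Yah solid in red. Every line of Sh3bgr and 10 of 11 lines of Ripk4 run downward from HIP to EC, and those of Map3k7cl and Ripply3 run both ways.

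Markers of other cells moved with region too. The summed CPM of 10 choroid plexus genes, among them the defining Ttr, Kl and Folr1, was 118.4 to 3411 in wt HIP and 807.8 to 2964 in Ts66Yah HIP, against 12.6 to 47.1 in wt EC and 13.3 to 18.7 in Ts66Yah EC. Ttr made up most of the HIP sums, with means of 1584 CPM in wt and 1372 CPM in Ts66Yah. Kcne2 and Clic6 of this list lie in the segment that Ts66Yah mice carry in an additional copy. Their HIP means were 8.96 and 28.4 CPM in wt and 12.9 and 38.8 CPM in Ts66Yah. Of the choroid plexus genes, 9 of 9 tested in wt and 10 of 10 in Ts66Yah were called lower in EC, with median log2 differences of -4.88 and -5.36, and none of the 10 was at 0 reads throughout a group. The HIP library with the lowest choroid plexus sum, wt replicate 4 at 118.4 CPM, held Sh3bgr at 1.21 CPM, its lowest HIP level, and in that mouse the HIP level was 3.27 times the EC level for Sh3bgr and 1.23 times for Ripk4. The HIP library with the highest sum, wt replicate 2 at 3411 CPM, held Sh3bgr at 2.04 and Ripk4 at 0.754 CPM, and in that mouse the ratios were 3.08 and 2.78. In Ts66Yah HIP the lowest sum, replicate 2 at 807.8 CPM, went with Sh3bgr at 3.37 and Ripk4 at 1.22 CPM. The ratios of that mouse were 5.87 and 0.862. The highest Ts66Yah sum, replicate 1 at 2964 CPM, went with 3.23 and 2.49 CPM, and with ratios of 11.8 and 3.25. Without the mouse of wt replicate 4 the wt difference was -1.39 for Ripk4. Over all genes tested, 47.7% in wt and 54.0% in Ts66Yah were called between the regions in either direction. Of 5 ependymal genes, 4 were called lower in EC in each genotype, with medians of -2.10 and -2.22. The 5 summed to 16.5 to 37.1 CPM in HIP and 6.03 to 11.7 in EC. The part of these cells in the region differences was not tested, and in bulk tissue fewer cells of a type and less RNA per cell cannot be told apart.

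Of the genes of heart and skeletal muscle, where Sh3bgr is abundant, most of those tested moved the other way. Of the 8 striated muscle genes, 5 were tested and 4 were called higher in EC in each genotype, with medians of 1.31 and 0.96. These were Acta1, Tnnt2, Myh7 and Tcap. Myh6 differed by -0.65 in wt and -0.41 in Ts66Yah and was not called. Actc1, Ckm and Mb, with at most 2, 7 and 14 reads in a library, were not tested. The 8 summed to 11.0 to 18.6 CPM in HIP and 24.3 to 42.5 in EC. Among all genes tested, 47.7% in wt and 54.0% in Ts66Yah were called between the regions in either direction. The 6 epithelial genes, relevant to Ripk4, summed to 1.47 to 8.05 CPM in HIP and 1.30 to 5.90 in EC. Of those tested, 1 was called higher and 1 lower in EC in wt, and 1 higher and 3 lower in Ts66Yah. The neuronal markers Snap25, Syt1 and Rbfox3 summed to 4653 to 5154 CPM in HIP and 5385 to 6565 in EC. Meningeal genes summed to 49.5 to 159.0 CPM in HIP and 55.8 to 173.6 in EC, smooth muscle genes to 27.4 to 48.9 and 20.3 to 35.5, erythroid genes to 86.3 to 232.1 and 249.2 to 673.1, and leukocyte and platelet genes to 4.45 to 6.62 and 5.60 to 8.08. Of the genes in these 11 lists of cells and regions, 0 were called by genotype with edgeR in either region. At an unadjusted p under 0.05 with edgeR there were 4 in HIP and 5 in EC. Over all genes tested, 11.9% in HIP and 6.25% in EC were at such a p, and 0.591% and 0.283% were called. DESeq2 called Tshz2 and Fezf2, both lower in Ts66Yah, and Aldh1a2, higher in Ts66Yah, in HIP, and limma voom called 1 of the cortical genes there. Their part in the values of the 4 genes was not tested.

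The genotype difference in EC minus that in HIP was 0.23 for Ripk4 (interval -0.70 to 1.17), -0.58 for Ripply3 (-1.40 to 0.24), -0.46 for Sh3bgr (-1.13 to 0.20) and 0.57 for Map3k7cl (-0.16 to 1.30). Single mice moved these values by over 1.5 times. With each mouse left out in turn, Ripk4 ranged from 0.04 (without Ts66Yah replicate 2 or 4) to 0.51 (without Ts66Yah replicate 5), and it moved by over 1.5 times without wt replicates 3, 4 or 5 or Ts66Yah replicate 1. Ripply3 was -0.36 without wt replicate 3, Sh3bgr was -0.25 without wt replicate 2 and -0.30 without Ts66Yah replicate 1, and Map3k7cl was 0.36 without Ts66Yah replicate 4. All are descriptions, since the naming used genotype values of each gene.

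Compared per kilobase of exons (RPKM), the order of the genes depended on region. In wt HIP the mean level was 1.06 ± 0.195 RPKM for Sh3bgr, 0.372 ± 0.0324 for Map3k7cl, 0.271 ± 0.104 for Ripk4 and 0.135 ± 0.0317 for Ripply3 (SD, n = 5). Map3k7cl and Ripk4 differed there by less than the SD of Ripk4. In wt EC the order was Map3k7cl at 0.319 ± 0.0783, Sh3bgr at 0.240 ± 0.105, Ripply3 at 0.161 ± 0.0600 and Ripk4 at 0.122 ± 0.0569 RPKM, and no neighbours in it differed by more than the larger of their SDs. In Ts66Yah HIP the levels were 1.77 ± 0.355 RPKM for Sh3bgr, 0.560 ± 0.221 for Ripk4, 0.354 ± 0.0749 for Map3k7cl and 0.282 ± 0.0476 for Ripply3 (SD, n = 6). In Ts66Yah EC they were 0.455 ± 0.202 for Map3k7cl, 0.295 ± 0.103 for Ripk4, 0.289 ± 0.0669 for Sh3bgr and 0.225 ± 0.0403 for Ripply3. All 4 genes stood near the middle of the 135 protein-coding genes of the segment, a rank that used no filter on low counts. Genes too weak to be tested are therefore among those below them. Of all segment genes, coding or not, 101 passed the filter in HIP and 93 in EC. The rank does not make the 4 genes typical of the expressed ones, and weak expression was part of how they were chosen. In wt HIP 64 of the others lay above Sh3bgr and 79 above Ripply3.

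The receptor-interacting kinases and the epidermal partners of Ripk4 were not called by genotype. Of 11 genes listed, 8 were tested in each region, and 0 were called by edgeR, DESeq2 or limma voom, with 0 at an unadjusted p under 0.05. Ripk1, which sets inflammatory signalling and cell death, was at 6.01 CPM in wt HIP and differed by -0.01 with a standard error of 0.09 in Ts66Yah. Ripk2, which acts in NOD receptor signalling, differed by 0.03, and Dstyk, the most abundant of the family at 81.0 CPM, by 0.05. Ripk3, the kinase of necroptosis, was as weak as the genes described here, at 0.370 and 0.503 CPM (log2 fold change 0.41, standard error 0.28). Between the regions, Ripk1, Ripk2 and Dstyk were called lower in EC in both genotypes, by 0.21 to 0.53 on the log2 scale, as was Ripk3 in Ts66Yah. Trp63, a regulator of the epidermis, was called lower in EC in both genotypes, and Grhl3, another, was called higher in EC in Ts66Yah. Of all genes tested, 47.7% in wt and 54.0% in Ts66Yah were called between the regions in either direction.

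The TAK1 complex, to which Map3k7cl is related in sequence, was expressed at far higher levels and was not called by genotype either. All 6 listed genes were tested in both regions, with 0 called by any of the 3 tools. At an unadjusted p under 0.05 there were 0 in HIP and 1 in EC (Tab1, -0.18), against 11.9% and 6.25% of all genes tested. Map3k7, TAK1 itself, was at 55.6 and 58.3 CPM in wt and Ts66Yah HIP (log2 fold change 0.07, standard error 0.04) and at 53.4 and 54.1 CPM in EC. Its binding partners Tab1, Tab2 and Tab3 differed by -0.12, 0.03 and -0.06 in HIP. Tab1 and Tab2 were called lower in EC than in HIP in both genotypes, as was Traf6. The kinase Nlk was higher in EC by 1.14 in wt and 1.08 in Ts66Yah. The share of all genes called between the regions was 47.7% in wt and 54.0% in Ts66Yah.

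The Groucho/TLE partners of Ripply3 were abundant. Tle5 was at 324.0 CPM in wt HIP, Tle1 at 62.5, Tle4 at 58.4, Tle3 at 32.1 and Tle2 at 12.3. Of the 11 listed genes, 8 were tested in HIP and 6 in EC, and 0 were called by edgeR or limma voom. In HIP 3 were at an unadjusted p under 0.05, Tle2, Tle3 and Tle5, at -0.30, -0.19 and -0.31 on the log2 scale, and DESeq2 called Tle5. Over all genes tested in HIP, 2188 of 18452 (11.9%) were at an unadjusted p under 0.05. In EC Tle3 was at an unadjusted p under 0.05, as were 6.25% of all genes tested there. Of the family itself, Ripply2 was at 2.76 CPM in wt HIP and 2.26 in Ts66Yah HIP (log2 fold change -0.28, standard error 0.17) and was not called, and Ripply1 had at most 1 read in a library and was not tested. Tle1 and Tle2 were called lower in EC than in HIP in both genotypes, by 0.85 to 1.26 on the log2 scale, as was the weakly expressed Tbx6 (adjusted p = 0.0387 in wt and 0.000836 in Ts66Yah with edgeR). In Ts66Yah Tle3 and Tle5 were called higher in EC, by 0.20 and 0.29. Such calls between the regions covered 47.7% of all genes tested in wt and 54.0% in Ts66Yah.

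The SH3BGR-like genes, whose products share the thioredoxin-like fold of Sh3bgr, were expressed at higher levels than it. Sh3bgrl was at 136.2 CPM in wt HIP, Sh3bgrl3 at 74.4 and Sh3bgrl2 at 42.2. Their genotype differences in HIP were 0.02, 0.05 and -0.02, and 0 of 3 were called in either region by edgeR, DESeq2 or limma voom. In EC Sh3bgrl2 was at an unadjusted p under 0.05, as were 6.25% of all genes tested there. Between the regions Sh3bgrl was called lower in EC by 0.38 in wt and 0.36 in Ts66Yah. Sh3bgrl2 differed by 0.07 in wt and was called higher in EC by 0.31 in Ts66Yah, and Sh3bgrl3 was not called. Region calls were made for 47.7% of all genes tested in wt and 54.0% in Ts66Yah. 

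Finally, the genes that varied most like each member over the 22 libraries were listed, after the mean of each of the 4 groups had been subtracted. Over 17231 genes, Ripk4 was most like Tmem138 (Pearson r = 0.73), Pip5k1b (0.71) and Dennd2a (0.70), and Ripply3 was most like Rbpj-ps3 (0.66), Capg (0.65) and Irf1 (0.65). Sh3bgr was most like Car14 (0.78), Ppp1r1b (0.77) and Penk (0.77), and Map3k7cl was most like Ppp1r14c (0.72), Ndst2 (0.70) and Ddx60 (0.70). Among themselves, the largest correlation was that of Ripk4 with Ripply3 at 0.52, and the correlations of Sh3bgr with the other 3 were -0.14 to 0.16. Libraries from one mouse are not independent and read counts are low, so that these values are a description.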

How the data were processed

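RNA-Seq libraries of HIP and EC from 5 wt and 6 Ts66Yah mice were analysed. The authors mapped single-end reads of 50 bases to GRCm38 with Hisat2 and counted them per gene with HTSeq-count; they deposited raw counts of 55385 genes. The labels describe poly(A) selection, whereas the methods name both ribosomal RNA depletion and polyadenylated RNA. The authors also deposited tables of their own comparisons (DESeq2 and FCROS), which were not used. Of the gene identifiers, 55144 matched GENCODE M21.

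In R 4.3.3, genes that passed edgeR's filterByExpr were scaled by TMM and tested on the deposited counts with the quasi-likelihood test of edgeR 4.0.16, by genotype within each region and by region within each genotype. The difference between regions was fitted over all 22 libraries with 4 group means. Benjamini-Hochberg adjustment covered all genes tested, and the threshold was 0.05. Intervals are 95% t intervals from Wald standard errors; a prior count of 2 entered log2 CPM. The fit was tested on simulated counts with the same dispersion for every gene and changes put into genes drawn at random. That test does not vouch for the intervals of weak genes such as the members. Depth was 25.9 M to 50.1 M reads, and no libraries of a group agreed within sampling noise.

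HIP and EC libraries of one mouse were paired by the animal number in the labels; their deviations correlated at 0.21 to 0.54 in wt and 0.31 to 0.48 in Ts66Yah, and the fit with the animal as a block was an alternative. Other alternatives were DESeq2 1.42.0, limma voom 3.58.1, RLE factors, no filter, at least 1 CPM in at least 5 libraries, blocks by replicate number or range of animal numbers, all libraries in one fit, and each mouse left out. The genes named are the 4 members, their families and the 3 most alike genes of each. The members, gene lists and tests were chosen with earlier results of these data known.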

Additional observations from a re-analysis of the deposited data

Results flagged for a closer look

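Of 16 groups of libraries examined, 4 for each gene, 2 had a library far from the others of its group; chance alone gives about 1 in 20 such groups. Ripk4 in wt HIP replicate 3, at 1.63 CPM, stood apart by 0.779 of the group's range, above the critical value of 0.71. Without it the genotype difference of Ripk4 in HIP was 1.31 on the log2 scale, with an adjusted p of 0.0811 by edgeR. Sh3bgr in wt EC replicate 2, at 0.663 CPM from 22 reads, stood apart by 0.738 of the range. Without it the difference in EC was 0.56, and the difference between the regions in wt was -2.34.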

How the results depend on the processing

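All member values kept their direction and side of the threshold under the other settings, or moved by less than 1 SD between replicates, except for Ripk4. With DESeq2, Ripk4 in HIP was called at 1.03 (adjusted p = 0.0344). Its EC minus HIP difference in Ts66Yah ranged from -1.12 to -0.65 with each mouse left out, and 4 of 6 fits kept the call. The number of genes called by genotype over all genes moved more. In HIP it was 109, against 357 with DESeq2, 61 with a replicate block and 68 with animal number range as the block (wt replicate 1, in neither range, left out). In EC it was 50, against 107 with DESeq2 and 79 with all 22 libraries in one fit. The cause was not tested. Samples of wt and Ts66Yah that share a replicate number share only the number, since their deviations correlated at -0.01 to 0.06 in HIP and 0.02 to 0.19 in EC. With the replicate block the difference in HIP was 1.09 for Ripk4 (adjusted p = 0.214) and 1.14 for Ripply3 (adjusted p = 0.194), by edgeR. Blocking on the animal, the pairing of the regions, changed no member's call, and the difference of Ripk4 was -1.17 in wt (adjusted p = 0.00231) and -0.90 in Ts66Yah (adjusted p = 0.0173), by edgeR. Requiring 1 CPM in 5 libraries left Ripk4 and Sh3bgr in HIP and in Ts66Yah, Sh3bgr in wt, and no member in EC, and Ripply3 gave no value in some other fits that removed it. Counts of 5 to 18 reads limit Ripply3 most.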
